A study of Homo sapiens with 22 samples.

Results

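SK-N-AS cells carried through 30 days of a combined drug treatment were compared with untreated SK-N-AS cells across all genes of the deposited count table. SK-N-AS is an established human neuroblastoma cell line, which the labels class as mesenchymal (MES). The comparison uses 8 of the 22 samples of the series, chosen by their sample names: 4 untreated libraries and 4 libraries called S2D30 (stage 2, day 30). Untreated cells were kept in DMEM with 10% fetal bovine serum. Treated cells first spent 4 days with 5 µM PP121 in medium with 1% serum (stage 1, S1D4), and then 30 days with 5 µM PP121 and 100 nM bufalin in Neurobasal with B27, a serum-free neuronal medium. The groups therefore differ in 2 drugs, serum, basal medium and time in culture together, and the parts of each in a difference cannot be told apart. A second set of 4 libraries, S2D4, came from the same drugs, doses and medium after 4 days of stage 2 and is used at the end. The labels do not say whether the 4 replicates of a group were separate cultures, so p-values measure the spread between these samples, which may be technical.

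Each library held 19145000 to 37506800 counts in untreated cells and 19956878 to 22783860 in S2D30. The Pearson correlation of log2 CPM (counts scaled to a common library size) across genes was 0.988 to 0.992 between S2D30 libraries, 0.974 to 0.990 between untreated libraries and 0.806 to 0.814 between an S2D30 and an untreated library. The 13 genes of the mitochondrial genome took 5.47% to 12.4% of the counts in untreated cells and 3.34% to 5.53% in S2D30. Among the untreated libraries replicates 1 and 2 lay apart from replicates 3 and 4 for a number of genes, and the values of each library are given below. S2D4 replicate 4 stood apart from the other 3 libraries of its group, so that each result that rests on S2D4 is given with and without it.

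PP121 is an inhibitor of receptor tyrosine kinases and of the PI3K and mTOR kinases, which carry growth factor signals to protein synthesis and the cell cycle. Bufalin is a cardiac glycoside from toad venom that blocks the sodium pump, the ATPase that exports sodium and imports potassium. Neuroblastoma cells occur in an adrenergic state, held by factors such as HAND2 and GATA3, and in a mesenchymal state with PRRX1, vimentin and CD44. Cells that leave the cell cycle lose the genes of DNA replication, which the E2F factors drive, and those of mitosis, which are controlled through CHR and CCAAT elements. Cells that stop dividing under stress can secrete chemokines, cytokines and metalloproteinases, many of them targets of NF-kappa-B and AP-1, and can enlarge their lysosomes, whose genes share an E-box read by TFEB and TFE3.

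The promoters of 5 genes show the kinds of element that go with the main gene groups below. Printed are the 250 bases before the RefSeq start of the gene (GRCh38.p14), written 5′ to 3′ on the strand of the gene, and the capitals mark the match named for each. CDK1, the kinase that starts mitosis, holds a CHR (TTTGAA) in chr10:60778081-60778330 on the plus strand. PCNA, the sliding clamp of DNA replication, holds an E2F match (the reverse complement of TTTCCCGC) in chr20:5126623-5126872 on the minus strand. The chemokine genes CCL20 (chr2:227813592-227813841, plus strand) and CXCL2 (chr4:74099196-74099445, minus strand) hold NF-kappa-B matches (GGG, any 3 bases and then TTCC, on both strands), and in CXCL2 the capitals cover 2 overlapping matches, 1 on each strand. CTSA, the lysosomal protective protein cathepsin A, holds the E-box TCACGTGA in chr20:45891085-45891334 on the plus strand.
CDK1: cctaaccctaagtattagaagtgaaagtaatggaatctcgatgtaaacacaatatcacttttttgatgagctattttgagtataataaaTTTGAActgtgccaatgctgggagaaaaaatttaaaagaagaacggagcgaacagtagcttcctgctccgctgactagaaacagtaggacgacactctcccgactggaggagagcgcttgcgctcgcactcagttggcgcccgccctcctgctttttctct
PCNA: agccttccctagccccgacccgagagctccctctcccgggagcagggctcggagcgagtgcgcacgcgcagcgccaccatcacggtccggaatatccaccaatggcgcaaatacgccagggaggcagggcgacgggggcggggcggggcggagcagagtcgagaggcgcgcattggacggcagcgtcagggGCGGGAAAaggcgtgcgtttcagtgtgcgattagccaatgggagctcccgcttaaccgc
CCL20: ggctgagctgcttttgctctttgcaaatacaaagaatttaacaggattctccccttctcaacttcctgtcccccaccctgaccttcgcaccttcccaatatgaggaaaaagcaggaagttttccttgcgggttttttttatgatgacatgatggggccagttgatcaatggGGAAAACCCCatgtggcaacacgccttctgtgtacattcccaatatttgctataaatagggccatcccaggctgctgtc
CXCL2: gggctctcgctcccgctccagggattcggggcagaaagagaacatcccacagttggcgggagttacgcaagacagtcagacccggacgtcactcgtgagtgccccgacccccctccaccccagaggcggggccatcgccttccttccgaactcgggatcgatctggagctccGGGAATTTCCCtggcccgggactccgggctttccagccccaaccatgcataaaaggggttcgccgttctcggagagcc
CTSA: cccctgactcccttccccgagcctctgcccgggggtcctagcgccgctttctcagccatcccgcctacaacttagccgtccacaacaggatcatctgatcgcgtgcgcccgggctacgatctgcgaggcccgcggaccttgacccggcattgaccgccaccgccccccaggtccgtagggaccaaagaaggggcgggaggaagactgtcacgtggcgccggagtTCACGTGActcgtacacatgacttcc

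The same letters were searched on both strands in the 27305 RefSeq promoters of that length. CHR was found in 15 of 33 promoters of the mitosis list (45.5%), in 1 of 32 of the replication list (3.12%) and in 13.6% of all promoters. The E2F letters, TTTGGCGC or TTTCCCGC, were found in 12 of 32 replication promoters (37.5%), in 2 of 33 mitosis promoters (6.06%) and in 1.96% of all. CCAAT was found in 23 of 33 mitosis promoters (69.7%), in 19 of 32 replication promoters (59.4%) and in 33% of all. The NF-kappa-B letters were found in 9 of 27 chemokine promoters (33.3%), in 6 of 16 promoters of the NF-kappa-B list (37.5%), in 3 of 23 cytokine promoters (13%) and in 5.61% of all. They were also found in 4 of 32 replication (12.5%), 3 of 28 sterol (10.7%) and 3 of 33 mitosis promoters (9.09%), so the cytokine share lay near that of these lists, and in 0 of 17 metalloproteinase promoters. The AP-1 letters, TGANTCA, were found in 7 of 23 cytokine promoters (30.4%), in 6 of 27 chemokine promoters (22.2%), in 4 of 17 promoters of the metalloproteinase list (23.5%), in 1 of 23 of the ERK feedback and AP-1 list (4.35%) and in 6.6% of all. IL1B, IL24 and IL6, named below, held no AP-1 match, and IL19, which held 1, was not tested. CXCL8 held 1. The lysosomal E-box was found in 5 of 29 lysosome promoters (17.2%), in 3 of 32 replication promoters (9.38%) and in 0.89% of all. A sterol element, TCACNCCAC, was found in 1 of 28 sterol promoters (3.57%) and in 0.875% of all. A list's share covers its genes with such a promoter, whether or not they were tested or called. The chemokines with NF-kappa-B letters included CCL1, CXCL6, CXCL10 and CXCL11, which were not tested. CXCL8, among the largest rises, held no NF-kappa-B match. A match describes these letters in this window and is not a binding site measured here.

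Most genes tested differed between S2D30 and untreated cells. Of 15810 genes tested, 5336 were higher in S2D30 (33.8%) and 5771 lower (36.5%), 70.3% in either direction, at a Benjamini-Hochberg adjusted p under 0.05 in edgeR's quasi-likelihood test. The 4 S2D30 libraries did not overlap the 4 untreated libraries for 10506 genes (66.5%). At least 2-fold differences were called for 2807 genes higher (17.8%) and 3038 lower (19.2%), and at least 32-fold differences for 363 higher and 245 lower. The counts include 231 genes called higher with at most 3 counts in each untreated library and 167 called lower with at most 3 counts in each S2D30 library. The median log2 fold change over all genes tested was -0.03. The scaling takes most genes as unchanged and so centres the fold changes. A shift shared by most genes would therefore not show in this median. Without a stated strand setting, reads of a gene and of another on the opposite strand cannot be told apart. Among the genes named here the overlap was widest for CCL3, FTH1, DUSP6, DDIT3, CTSA, NGFR, VIM, HAND2, SQSTM1, IL6, CP, STX1A, HLA-B, FBP1 and CTSD, at 15.8% to 74.6% of their exons in GENCODE v29, and at most 12.2% for the others found in that annotation. In bulk RNA, fewer cells of a type and less RNA per cell cannot be told apart.

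**Figure D1:**
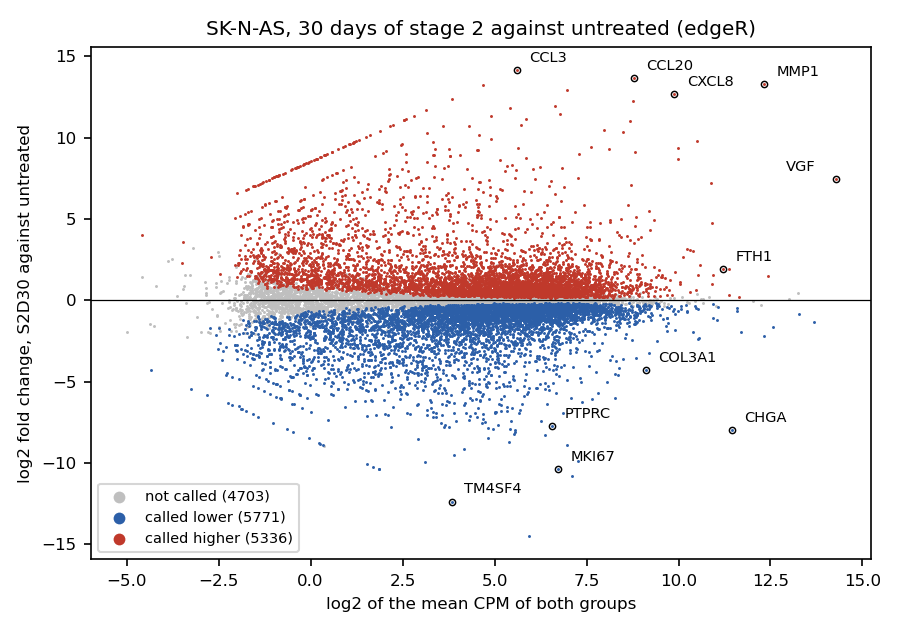
Log2 fold change of S2D30 against untreated SK-N-AS (vertical axis) against the log2 of the mean CPM of both groups (horizontal axis), 1 point per gene tested, red where called higher (5336), blue where called lower (5771) and grey where not called (4703). Circles mark 11 named genes: CCL3, CCL20, CXCL8, MMP1 and VGF lie at the top, and TM4SF4, MKI67, CHGA and PTPRC at the bottom.

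The 10 largest rises by the naming rule included 7 genes of chemokines, metalloproteinases and cytokines, grouped after the ranking was seen. These were the chemokines CCL3, CCL20, CXCL8 and CCL3L3, the metalloproteinases MMP1 and MMP10, and the cytokine IL24. The other 3 were DIO2, the deiodinase that activates thyroid hormone, LAIR2, a soluble collagen-binding receptor, and RBBP8NL. DIO2 was at 0.158, 0.28, 0.0509 and 0.19 CPM in untreated replicates 1 to 4 and at 838, 960.2, 902 and 787 CPM in S2D30 (log2 fold change 12.27, SE 0.80, adjusted p = 6.64e-10). RBBP8NL had 3 counts in all 4 untreated libraries together and stood at 262, 251, 248 and 238 CPM in S2D30, a ratio of 9212 (interval 3152 to 44672), with the 95% interval covering counting error only. LAIR2 had 0 counts in each untreated library and 18.5–36.3 CPM in S2D30, at least 248-fold higher against a floor of 3 counts per library; 15.9% of its exon sequence in 100-base words also occurs in other genes. For all 10 genes the groups did not overlap, which the naming rule required.

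The 10 largest falls included TOP2A and MYBL2, both on the mitosis list. MKI67, the proliferation marker Ki-67, the mitotic kinase PBK and the DNA glycosylase NEIL3 were among them and are on none of the lists. The other 5 were TM4SF4, a tetraspanin-like membrane protein, the adaptor SHD, the ubiquitin ligase subunit SPSB4, the gluconeogenic enzyme FBP1 and the nuclear receptor corepressor HR. TM4SF4 was at 40, 37.5, 20.8 and 16.1 CPM in untreated cells and had 0 counts in each S2D30 library, at least 201-fold lower. FBP1 was at 39.8, 36, 24.7 and 17.8 CPM in untreated cells and had 3 counts in all S2D30 libraries together, a ratio of untreated to S2D30 of 849 (interval 290.3 to 4119.7). HR fell from 79–91.1 CPM to 0–0.408 CPM (log2 fold change -8.68, SE 0.82, adjusted p = 7.10e-08), with 0 counts in S2D30 replicate 3. SHD, from 227–364 to 0.0898–0.317 CPM, had its highest S2D30 value in replicate 1.

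All 36 genes of the DNA replication list and all 40 of the mitosis list were lower in S2D30, with medians of -2.57 and -5.83. The groups did not overlap for any of them. Over all genes tested 36.5% were lower and 66.5% had no overlap. CDK1 stood at 102, 97.7, 90.9 and 76 CPM in the untreated libraries and at 0.317, 0.37, 0.234 and 0.314 CPM in S2D30 (log2 fold change -8.20, SE 0.41, adjusted p = 3.17e-11). Its cyclin CCNB1 went from 107–164 to 2.43–4.3 CPM, 42-fold lower. TOP2A, the topoisomerase that untangles replicated DNA, went from 249 ± 45.9 CPM to 0.525 ± 0.144 CPM (SD, n = 4), and MYBL2, a factor that drives mitotic genes, from 309 ± 46 to 0.331 ± 0.134 CPM. Among the replication genes, TK1, which makes thymidine phosphate, fell by 8.07 (SE 0.53) and MCM10, which helps start the fork, fell by 7.49 (SE 0.34) on the log2 scale. PCNA fell from 222, 178, 185 and 135 CPM to 35.9, 38.7, 40.2 and 36.1 CPM (log2 fold change -2.25, SE 0.18, adjusted p = 6.87e-09). Both lists were lower throughout, and the mitotic genes by the larger median.

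Of the 24 genes of G1 control (G1 cyclins, CDK inhibitors and the RB family), 8 were higher and 16 lower, with a median of -0.71. These are 33.3% and 66.7%, against 33.8% and 36.5% of all genes tested. CDKN2B, the inhibitor p15 of CDK4 and CDK6, was at 5.03, 4.53, 2.14 and 2.18 CPM in untreated cells and at 143, 140.0, 127 and 148 CPM in S2D30 (log2 fold change 5.31, SE 0.26, adjusted p = 2.43e-11). CCND1, cyclin D1, rose from 192–229 to 838–933 CPM (log2 fold change 2.05, SE 0.09), while its partner CDK6 fell from 322, 347, 348 and 651 CPM to 64.8–71.7 CPM (log2 fold change -2.60, SE 0.17). The factors E2F2 and E2F8 were among the largest falls: E2F2 went from 35–37 to 0.269–0.56 CPM, and E2F8 had 8 counts in all S2D30 libraries together, a ratio of untreated to S2D30 of 130.5 (interval 66 to 303). In the list of p53 targets, 11 of 27 were higher and 11 lower, each 40.7%, near the shares of all genes tested. GDF15, a stress hormone of the TGF-beta family, was its largest rise, from 7.41, 6.81, 6.47 and 4.05 CPM to 665, 1007, 1038 and 640.4 CPM (log2 fold change 7.08, SE 0.78, adjusted p = 4.36e-07). PLK3 rose from 11.4–13.8 to 58–63.8 CPM, and TP53I3, a quinone reductase, fell from 35–87.6 to 3.1–4.34 CPM.

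The largest share of counts in S2D30 went to VGF, a neuropeptide precursor of dense-core vesicles. It stood at 289.8, 283, 199 and 136 CPM in untreated cells and at 37967, 40444, 41833 and 36692 CPM in S2D30, where it took 3.64% to 3.93% of all counts (log2 fold change 7.43, SE 0.25, adjusted p = 3.46e-13). MMP1, interstitial collagenase, drew the third most counts in S2D30, at 9557, 10942, 11358 and 8997 CPM, after 1.69, 1.31, 0.509 and 0.443 CPM in untreated cells (log2 fold change 13.28, SE 0.97, adjusted p = 2.66e-09). PTPRN, a membrane protein of dense-core vesicles, rose from 15.3–35.1 to 3720.2–3813 CPM, 147-fold, and STC1, the secreted glycoprotein stanniocalcin 1, from 1.63–4.62 to 2499–3221 CPM, 896-fold. TIMP1, an inhibitor of metalloproteinases, rose 27.3-fold to 3562–3859 CPM. These 4 genes besides MMP1 were chosen after their values were seen, because they are among the 20 genes with the most counts in S2D30. CPM are not corrected for transcript length, so the order describes counts and not molecules.

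Among chemokine genes, which encode the attractants of neutrophils and other leukocytes, 16 of 36 passed the filter on low counts, and a gene that passed only through its S2D30 counts had to differ. Of these 16, 10 were higher and 2 lower, with a median of 6.49, or 4.03 with genes near 0 set at their bound. Over all genes tested 33.8% were higher. CCL20 stood at 0.132, 0, 0 and 0.0633 CPM in untreated cells and at 887, 879.7, 985 and 795 CPM in S2D30, and CXCL8, interleukin 8, at 0.474, 0.233, 0.102 and 0.221 CPM and 1827, 1954, 2081 and 1722 CPM (log2 fold change 12.67, SE 0.62, adjusted p = 2.39e-11). CCL3 and CCL3L3 had 0 counts in each untreated library and 76.6–111 and 38.7–60.9 CPM in S2D30, at least 833-fold and 443-fold higher. They are near-identical copies whose reads the counting could split. None of the 100-base words of CCL3 occurs in another gene of GENCODE v29, but CCL3L3 was not found in that annotation and could not be compared. Of the CCL3 exons 74.6% lie opposite an antisense gene, so each value alone is uncertain. CXCL2 and CXCL5, chosen after their values were seen, had 4 and 5 counts over all untreated libraries and 37.4–53.3 and 95.3–127 CPM in S2D30, ratios of 1323 (interval 516 to 4857) and 2532 (interval 1085 to 7799). CXCL1 reached only 2.2–4.89 CPM. The 2 genes that fell were CCL2, which draws monocytes and stood at 26.9, 18.8, 12.7 and 6.39 CPM in untreated cells and 5.44, 2.12, 2.24 and 5.7 CPM in S2D30 (log2 fold change -2.06, SE 0.63, adjusted p = 0.00782), and CXCL12, from 3.73–5.69 to 0.0906–0.234 CPM. Against untreated replicates 3 and 4 alone the CCL2 difference was -1.25 (adjusted p = 0.15), so the call was lost without untreated replicates 1 and 2.

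In the interleukin and cytokine list, 24 of 32 genes were tested, and 19 were higher and 1 lower, with a median of 2.71; 33.8% of all genes tested were higher. At most 3 counts in each library of 1 group, but not of both, were found for 6 of the 24. A gene that passed the filter only through its S2D30 counts had to differ. In a model of untreated and S2D30 libraries alone, 20 were tested and the median was 5.39. IL1B, the precursor of interleukin 1 beta, was at 0.659, 0.513, 0.0509 and 0.19 CPM in untreated cells and 777, 927, 909 and 646 CPM in S2D30 (log2 fold change 11.04, SE 0.75, adjusted p = 1.19e-09), with untreated replicates 1 and 2 above replicates 3 and 4. IL24, with 2 counts in untreated replicate 1 and 0 in the others, reached 81.9, 91, 97.9 and 68.6 CPM, a ratio of 4673 (interval 1293 to 38595). LIF, leukaemia inhibitory factor, rose from 5.59, 7.23, 3.11 and 3.61 CPM to 1773, 2485, 2407 and 1452 CPM (log2 fold change 8.70, SE 0.31, adjusted p = 7.91e-13); IL6, of the same family, had 0 counts in untreated cells and only 2.29–2.8 CPM in S2D30. TNF was near 0 in both groups, with 4 counts over the untreated and 6 over the S2D30 libraries, and was not called (adjusted p = 0.636). IL12A was the 1 gene that fell, from 2.32–3.36 to 0.449–1.01 CPM. LIF, GDF15, IL1B and CCL3 were higher in S2D30 replicates 2 and 3 than in replicates 1 and 4, as were 4693 of the 15810 genes tested, while 3985 were lower there. The mitochondrial share of counts split the same way, at 5.53% and 5.50% in replicates 2 and 3 and 3.84% and 3.34% in replicates 1 and 4, and its part in these values was not tested. IL6, TNF, LIF and IL12A were named after their values were seen.

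**Figure D2:**
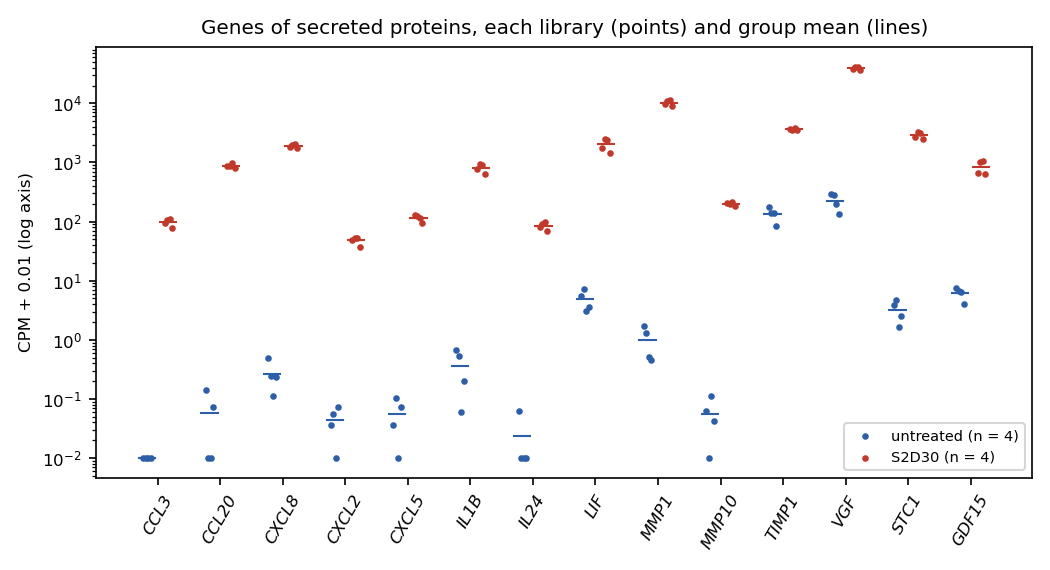
CPM of 14 genes of secreted proteins on a log axis after adding 0.01, with 1 point per library and a line at each group mean, untreated SK-N-AS in blue (n = 4) and S2D30 in red (n = 4). No gene shown has overlapping groups: the S2D30 libraries of CCL20 sit between 795 and 985 CPM against at most 0.132 CPM in untreated cells.

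NF-kappa-B is a family of factors held inactive by inhibitors that are themselves its targets. All 18 tested genes of the list of its subunits and feedback genes were higher in S2D30, 18 of 18 without overlap, with a median of 1.83. Over all genes tested 33.8% were higher and 66.5% had no overlap. BIRC3, an inhibitor of apoptosis and ubiquitin ligase, was at 1, 1.49, 0.611 and 1.42 CPM in untreated cells and 209, 171, 168 and 193 CPM in S2D30 (log2 fold change 7.33, SE 0.47, adjusted p = 5.79e-10). TNFAIP3, the deubiquitinase A20, rose from 0.411–0.98 to 34.3–39.7 CPM. NFKB2, the precursor of the p52 subunit, rose from 36.5–45.6 to 323–351 CPM (log2 fold change 3.10, SE 0.22), and NFKBIA, the inhibitor of the canonical subunits, from 48.5–69.4 to 175–189 CPM (log2 fold change 1.57, SE 0.32). Of 41 interferon-stimulated genes, 11 were higher and 18 lower (26.8% and 43.9%, against 33.8% and 36.5% of all genes tested). ISG20, an RNA exonuclease, rose from 1.17–3.22 to 18.7–35.2 CPM, while USP18, which removes ISG15, fell from 21.4–34.2 to 3.41–5.19 and PLSCR1, a scramblase, from 18.1–20.4 to 3.01–4.25 CPM. Of the 100-base words of USP18, 15.4% also occur in other genes.

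Genes of MHC class I presentation, which shows peptides to T cells, were higher for 15 of 20 and lower for 3. The shares over all genes tested were 33.8% higher and 36.5% lower. HLA-B stood at 4.48, 4.67, 3.11 and 2.15 CPM in untreated cells and at 33.2, 40.8, 42 and 26.6 CPM in S2D30 (log2 fold change 3.31, SE 0.43, adjusted p = 3.39e-06), and HLA-E rose from 24.6–28.3 to 195–212 CPM (log2 fold change 2.94, SE 0.21). The light chain B2M rose from 161–278 to 663–731 CPM. PSMB10, a subunit of the immunoproteasome, fell from 10.5–18.5 to 6.55–9.15 CPM (log2 fold change -0.91, SE 0.19), with 19.4% of its 100-base words also found in other genes. HLA genes are close copies of each other, although none of the 100-base words of HLA-B was shared, and 17.8% of the exons of HLA-B lie opposite other genes. Of 20 complement and acute-phase genes, 9 were higher and 6 lower. CD55, which protects cells from complement, rose from 1.43–1.82 to 290.3–322 CPM (log2 fold change 7.51, SE 0.20) and C3, the central complement component, from 0.356–1.4 to 51.9–59.2 CPM, while CP, ceruloplasmin, fell from 32, 29.4, 11 and 13.7 CPM to 0.314–0.589 CPM.

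The markers of both neuroblastoma states were present in untreated cells, so the cells labelled MES did not carry the mesenchymal markers alone. HAND2 stood at 588–637 CPM and GATA3 at 132–156 CPM, beside the mesenchymal markers PRRX1 at 25–29.4 CPM and VIM at 671–1278 CPM. TH, tyrosine hydroxylase, had at most 13 counts in an untreated and 8 in an S2D30 library and was not called (adjusted p = 0.915). Markers of other cell types were mixed. PTPRC, the leukocyte antigen CD45, was at 179.6, 185, 169 and 214 CPM in untreated cells and 0.544, 0.847, 1.4 and 0.718 CPM in S2D30 (log2 fold change -7.73, SE 0.20, adjusted p = 2.22e-14), while CD3E and TYROBP had 0 counts in all 8 libraries and SPI1 at most 6. The summed CPM of the 19 leukocyte markers was 203 to 242 in untreated cells and 194 to 264 in S2D30. Of the 19, 5 were at 0 in all 8 libraries (CD3D, CD3E, CD2, MS4A1 and TYROBP). Over all genes tested 33.8% were higher and 36.5% lower. The filter on low counts left out 11 of the 19 markers, and a marker that passed only through its S2D30 counts had to differ. Of the 8 tested, 6 were higher and 2 lower, with LCP1, an actin bundler, from 0.327–0.975 to 65.3–73 CPM, ITGAX, an integrin, from 0.153–0.56 to 21.1–28.8 CPM, CD68, a lysosomal protein, from 8.35–18.3 to 97.2–151 CPM (67.2% of its exons' 100-base stretches, and 32.3% of those of CTSD, also occur in other genes) and CD14 from 0.822–1.96 to 2.17–4.62 CPM. Their part in the rise of chemokine and cytokine genes was not tested. The 14 endothelial and epithelial markers summed to 66.9 to 166 CPM in untreated cells and 124 to 136 CPM in S2D30: CDH5 fell from 2.29, 2.57, 7.08 and 9.3 CPM to 0.0529–0.317 CPM, PECAM1 rose from 0.633–1.07 to 3.33–6.2 CPM, CDH1 was not called (adjusted p = 0.965) and EPCAM had at most 7 counts.

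Adrenergic genes fell. In the list of adrenergic factors and catecholamine genes, 20 of 26 were lower and 2 higher, with a median of -1.97. The share lower over all genes tested was 36.5%. HAND2, a helix-loop-helix factor of the sympathetic lineage, stood at 623, 588, 637 and 598 CPM in untreated cells and at 139, 164, 162 and 125 CPM in S2D30 (log2 fold change -2.05, SE 0.11, adjusted p = 3.82e-11). GATA3 and ISL1 fell too, with log2 fold changes of -2.19 (SE 0.26) and -2.77 (SE 0.11). CHGA, the granule protein chromogranin A, was at 3465, 3182, 8647 and 6919.5 CPM in untreated cells, with replicates 3 and 4 above replicates 1 and 2, and at 18.3, 29.7, 27.6 and 13.1 CPM in S2D30 (log2 fold change -7.97, SE 0.76, adjusted p = 7.61e-08). DBH, which makes noradrenaline, fell from 61.1–106 to 1.82–3.32 CPM, and SLC6A2, which takes it up, from 19.8–30.1 to 0.0449–0.181 CPM, with 15.6% of its 100-base words also found in other genes. KLF13 was the larger of the 2 rises, from 101–178 to 211–252 CPM (log2 fold change 0.86, SE 0.21). VGF and PTPRN, which belong to dense-core vesicles as CHGA does, moved opposite to CHGA.

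Neuronal genes outside this programme were called in both directions. Of 32 genes of the neuronal cytoskeleton and growth cone, 25 were lower and 3 higher, with a median of -1.20 (36.5% of all genes tested were lower). DPYSL5, a growth cone collapsin response protein, fell from 93.9–112 to 0.747–1.08 CPM (log2 fold change -6.76, SE 0.25) and ELAVL4, the neuronal RNA-binding protein HuD, from 136–205 to 3.04–4.82 CPM (log2 fold change -5.46, SE 0.41). ENO2, neuron-specific enolase, rose from 43.1–65.2 to 232–250.3 CPM (log2 fold change 2.14, SE 0.15). Synaptic vesicle and active zone genes were split, with 12 of 31 higher and 12 lower. Each share was 38.7%, near the 33.8% and 36.5% of all genes tested. UNC13A, which primes vesicles, was at 14.4, 19.7, 6.11 and 14.3 CPM in untreated cells and 95.5, 104, 76.8 and 85.8 CPM in S2D30 (log2 fold change 2.73, SE 0.24, adjusted p = 2.86e-08); STX1A, a syntaxin of the fusion machinery, rose from 18.9–26.3 to 80–85 CPM, and SYN2, a synapsin, fell from 20.7–25.2 to 2.59–3.64 CPM. Of 29 voltage-gated channel genes, 13 were lower and 8 higher: KCNC1, a potassium channel, fell from 8.35–12.9 to 0.0453–0.37 CPM, and CACNA1A, a presynaptic calcium channel, rose from 1.99–2.94 to 10.3–17 CPM.

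Schwann, glial and neural stem genes were few: 13 of 23 were tested. Of these, 4 were higher and 5 lower (30.8% and 38.5%, near the shares of all genes tested). The summed level of the 23 genes was 568 to 856 CPM in untreated cells and 379 to 399 CPM in S2D30. EGR2, an early response factor that also drives myelination, had 5 counts over all untreated libraries and 15.6–20 CPM in S2D30, a ratio of 396 (interval 169 to 1220.4). MSI1, a neural stem cell RNA-binding protein, fell from 46.8, 50.4, 85.4 and 82.7 CPM to 2.26–3.07 CPM and NGFR, the p75 neurotrophin receptor, from 24.9, 29.9, 54.5 and 55.8 CPM to 1.72–2.96 CPM. SOX10 had at most 6 counts and S100B at most 17 in any of the 8 libraries, and neither was tested.

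Mesenchymal-state genes rose on balance, with 21 of 30 higher and 8 lower and a median of 1.55. The shares over all genes tested were 33.8% and 36.5%. CD44, the hyaluronan receptor, was at 13.9, 10.4, 7.33 and 5.63 CPM in untreated cells and 201, 238, 229.8 and 191 CPM in S2D30 (log2 fold change 4.52, SE 0.27, adjusted p = 2.77e-10). NOTCH2 rose from 4.45, 5.32, 3.92 and 10.1 CPM to 212, 227, 186 and 219 CPM (log2 fold change 5.13, SE 0.49), with 17.5% of its sequence also found in other genes, BHLHE41, a circadian repressor, from 0.348–0.933 to 24.4–37.1 CPM, and RUNX1, named after its values were seen, from 3.57–5.56 to 85.1–94.3 CPM. The markers PRRX1, VIM, SNAI2 and YAP1 rose too, with log2 fold changes of 1.62 (SE 0.17), 1.57 (SE 0.21), 2.72 (SE 0.39) and 1.31 (SE 0.10). PRRX2, a close relative of PRRX1, moved against them, from 17.2–32.9 to 0.741–1.17 CPM (log2 fold change -4.89, SE 0.24). So did FN1, another of the fixed mesenchymal markers (log2 fold change -5.02, SE 0.47).

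Matrix genes were called in both directions. The fibrillar collagens COL3A1 and COL1A1 fell: COL3A1 was at 1169, 1170.5, 912 and 963 CPM in untreated cells and 59.7, 53.2, 49 and 55.5 CPM in S2D30 (log2 fold change -4.28, SE 0.13, adjusted p = 1.55e-13), and COL1A1 went from 550.1–622 to 40.2–46.5 CPM (log2 fold change -3.73, SE 0.19). Over the 27 collagen genes tested, 11 were lower and 10 higher, near the shares of all genes. COL22A1, a collagen of tissue junctions, had 4 counts over the untreated libraries and 22.9–30.4 CPM in S2D30, a ratio of 739 (interval 288 to 2716). Of 32 matrix glycoprotein genes, 19 were lower and 7 higher, with a median of -1.40 (36.5% of all genes tested were lower). FN1, fibronectin, which was fixed as a mesenchymal marker, fell from 52.6, 53.3, 57.8 and 91 CPM to 2.45, 1.48, 1.73 and 2.16 CPM (log2 fold change -5.02, SE 0.47, adjusted p = 6.02e-08), and FBLN2, a fibulin, from 10.7–13.5 to 0.314–0.589 CPM. THBS2, a thrombospondin, rose from 1.08, 0.7, 0.407 and 0.19 CPM to 35.4–53.5 CPM (log2 fold change 6.15, SE 0.63).

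Of 29 genes of metalloproteinases and their inhibitors, 12 were lower and 11 higher (41.4% and 37.9%, near the shares of all genes tested). Beside MMP1, the collagenase and stromelysin cluster gene MMP10 had 5 counts over all untreated libraries and 206, 198, 216 and 179.8 CPM in S2D30, a ratio of 4424 (interval 1895 to 13626). ADAMTS7 fell from 179–296 to 25.7–31.3 CPM and the membrane-anchored MMP15 from 57.5–85.5 to 4.98–6.19 CPM. Contractile genes were lower for 11 of 20 and higher for 5. The shares over all genes tested were 36.5% lower and 33.8% higher. SYNPO2, an actin-binding protein, fell from 371, 363, 354 and 562 CPM to 19.8, 21.3, 20.1 and 17.2 CPM (log2 fold change -4.40, SE 0.15). MYH10, a non-muscle myosin, fell from 94.6–126 to 28.7–33.1 CPM. The actin crosslinker FLNA rose from 895–1195 to 3718–4638 CPM (log2 fold change 1.94, SE 0.11).

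In the list of TGF-beta, activin and BMP genes, 19 of 32 were higher and 9 lower, and the largest rises were of 2 ligands. BMP2 was at 0, 0.28, 0 and 0 CPM in untreated cells and 63.3, 65.3, 59.9 and 49.6 CPM in S2D30; its fitted log2 fold change of 9.94 depends on untreated replicate 2, without which it was 13.44. INHBA, the subunit of activin A, rose from 0.606, 1.17, 0.764 and 1.04 CPM to 457, 732, 663 and 375 CPM (log2 fold change 9.30, SE 0.61, adjusted p = 7.34e-10). SMAD6, an inhibitor of BMP signalling, fell from 18.7–31.9 to 2.75–3.53 CPM (log2 fold change -3.06, SE 0.22). Of 28 genes of ERK feedback and AP-1, 17 were higher and 4 lower, with a median of 1.27 (33.8% of all genes tested were higher). EGR1, an early response factor, was at 29.8, 32.6, 18.4 and 18.4 CPM in untreated cells and 1118, 1259, 1179 and 1006 CPM in S2D30 (log2 fold change 5.52, SE 0.35, adjusted p = 4.27e-10), FOSB, a subunit of AP-1, rose from 0.56–0.98 to 43.8–47.7 CPM, and DUSP6, a phosphatase of ERK, from 137–149 to 245–424 CPM, with 40.5% of its exons opposite another gene. ETV1 fell from 103, 104, 146 and 195 CPM to 49.7–57.8 CPM.

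The direct targets of the drugs were measured at the RNA level only. Of 14 tested genes of kinases that PP121 inhibits, 8 were lower and 5 higher. RET, the receptor of the GDNF family in sympathetic cells, was at 496, 489, 634 and 736 CPM in untreated cells and 24.1, 31.4, 24.1 and 21.8 CPM in S2D30 (log2 fold change -4.54, SE 0.50, adjusted p = 4.00e-07), FLT1, a VEGF receptor, went from 10.2–15.1 to 0.467–0.688 CPM, and ABL2 rose from 69.2–126 to 297–409 CPM (log2 fold change 1.99, SE 0.16). In the list of FOXO targets and PI3K feedback genes, 17 of 25 were higher and 4 lower, with a median of 1.15. The shares over all genes tested were 33.8% and 36.5%. GADD45B rose from 1.82, 1.63, 0.407 and 0.348 CPM to 29.1–32 CPM and BCL6 from 3.32–4.58 to 48.8–52.5 CPM (log2 fold change 3.70, SE 0.11), while SESN3, a sestrin, fell from 13.9, 16.3, 24.2 and 35.6 CPM to 2.01–2.96 CPM. The 8 tested sodium pump genes were split, 4 and 4. Of the pump's regulators, FXYD5 rose from 6.86–14.9 to 94.2–101 CPM and FXYD6 fell from 31.4–51.3 to 4.48–5.4 CPM.

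Lysosome and autophagy genes rose widely: 30 of 43 were higher and 1 lower, with a median of 1.65. The share higher over all genes tested was 33.8%. CTSA was at 122, 116, 107 and 81.6 CPM in untreated cells and 438, 447, 442 and 437 CPM in S2D30 (log2 fold change 2.05, SE 0.21, adjusted p = 1.73e-07). CTSD, cathepsin D, rose from 181–279 to 2078–2192 CPM, SQSTM1, the autophagy receptor p62, from 238–333 to 2207–2558 CPM, and NPC1, which exports cholesterol from lysosomes, from 31.1–37.6 to 565–664 CPM (log2 fold change 4.18, SE 0.11). The largest rises by the naming rule were of GABARAPL1, a protein of autophagosomes, from 1.87–2.85 to 93.9–103 CPM, and of the protease CTSS, from 0.56–1.66 to 35.4–54.4 CPM. MAP1LC3A, another protein of autophagosomes, was the 1 gene that fell, from 21.4–29.4 to 2.17–3.18 CPM (log2 fold change -3.31, SE 0.47). CREG1, a lysosomal glycoprotein, rose from 37.5–49.3 to 641–678 CPM; it, CTSA, CTSD, SQSTM1 and NPC1 were named after their values were seen. The exons of CTSA and SQSTM1 lie opposite other genes over 28.5% and 22% of their length.

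Stress genes were called in both directions. Of 33 genes of the unfolded protein and integrated stress responses, 18 were higher and 6 lower. PPP1R15A, which restores translation, was at 31.4, 28.5, 22.8 and 18.4 CPM in untreated cells and 866, 935, 963 and 829 CPM in S2D30 (log2 fold change 5.15, SE 0.16, adjusted p = 1.63e-13), and DDIT3, the factor CHOP, rose from 5.09–7.51 to 116–157 CPM, with 31.6% of its exons opposite another gene. The serine synthesis genes PHGDH and PSAT1, which ATF4 is known to raise, fell, PHGDH from 40.7–61.1 to 0.635–2.38 CPM (log2 fold change -5.28, SE 0.46) and PSAT1 from 41.6–48.4 to 1.91–2.78 CPM (log2 fold change -4.33, SE 0.28). Cytosolic heat shock genes were higher for 8 of 23 and lower for 8, each 34.8%, near the 33.8% and 36.5% of all genes tested. HSPA1A, the inducible HSP70, was at 154, 143, 273 and 228 CPM in untreated cells and 381, 313, 348 and 461 CPM in S2D30 (log2 fold change 0.91, SE 0.19), but 67.3% of its sequence is shared with other genes, so it is uncertain. Its cochaperone BAG3 rose from 38.4–45.6 to 66.3–73 CPM and DNAJA1 fell from 283–353 to 124–160.2 CPM. Targets of NRF2 and ferritin genes were split, 12 of 27 in each direction: MT2A, a metallothionein, rose from 29.5, 24.3, 22.9 and 11.8 CPM to 268–401 CPM (log2 fold change 3.92, SE 0.26), OSGIN1 from 1.88–4.01 to 18.8–22.6 CPM and FTH1, ferritin heavy chain, from 635–1249.8 to 3437–4154 CPM (62.4% of its exons lie opposite another gene), while ME1, malic enzyme, fell from 19.5–30.4 to 8.52–11.1 CPM.

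Respiratory chain genes were lower or not called. In the list of 39 nuclear genes of the respiratory chain, 27 were lower and 0 higher in edgeR. Their median was -0.50, with log2 fold changes of -1.28 to 0.20. The share lower over all genes tested was 36.5%. ATP5C1, a subunit of ATP synthase, was at 145, 123, 122 and 88.4 CPM in untreated cells and 49.2, 49.3, 50.8 and 47.6 CPM in S2D30 (log2 fold change -1.28, SE 0.14, adjusted p = 4.00e-07), and UQCRFS1, of complex III, fell from 54.4–96.2 to 32.6–36.3 CPM. With the size factors of DESeq2 or its test, 1 gene of this list was higher. Glycolysis and hypoxia-response genes were higher for 17 of 32 and lower for 6: the glucose transporter SLC2A3 rose from 6.01–7.72 to 164–194 CPM (log2 fold change 4.71, SE 0.13), NDRG1 from 6.72–7.31 to 155–172 CPM (log2 fold change 4.52, SE 0.17), and EGLN3, an oxygen sensor and itself a target of HIF, fell from 36–65.6 to 2.43–3.27 CPM (log2 fold change -4.14, SE 0.21). Of 35 sterol and fatty acid synthesis genes, 17 were higher and 8 lower, with a median of 0.25. For the glycolysis and sterol lists the shares over all genes tested were 33.8% higher and 36.5% lower. INSIG1, the feedback anchor of SREBP, rose from 46, 41.9, 34.2 and 32.4 CPM to 130.1, 112, 117 and 140.2 CPM (log2 fold change 1.69, SE 0.18, adjusted p = 3.09e-07) and the sterol oxidase MSMO1 from 61.8–97.9 to 204–243 CPM, while TM7SF2, a sterol reductase, fell from 52.1–57.1 to 8.02–10.6 CPM (log2 fold change -2.58, SE 0.35).

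**Figure D3:**
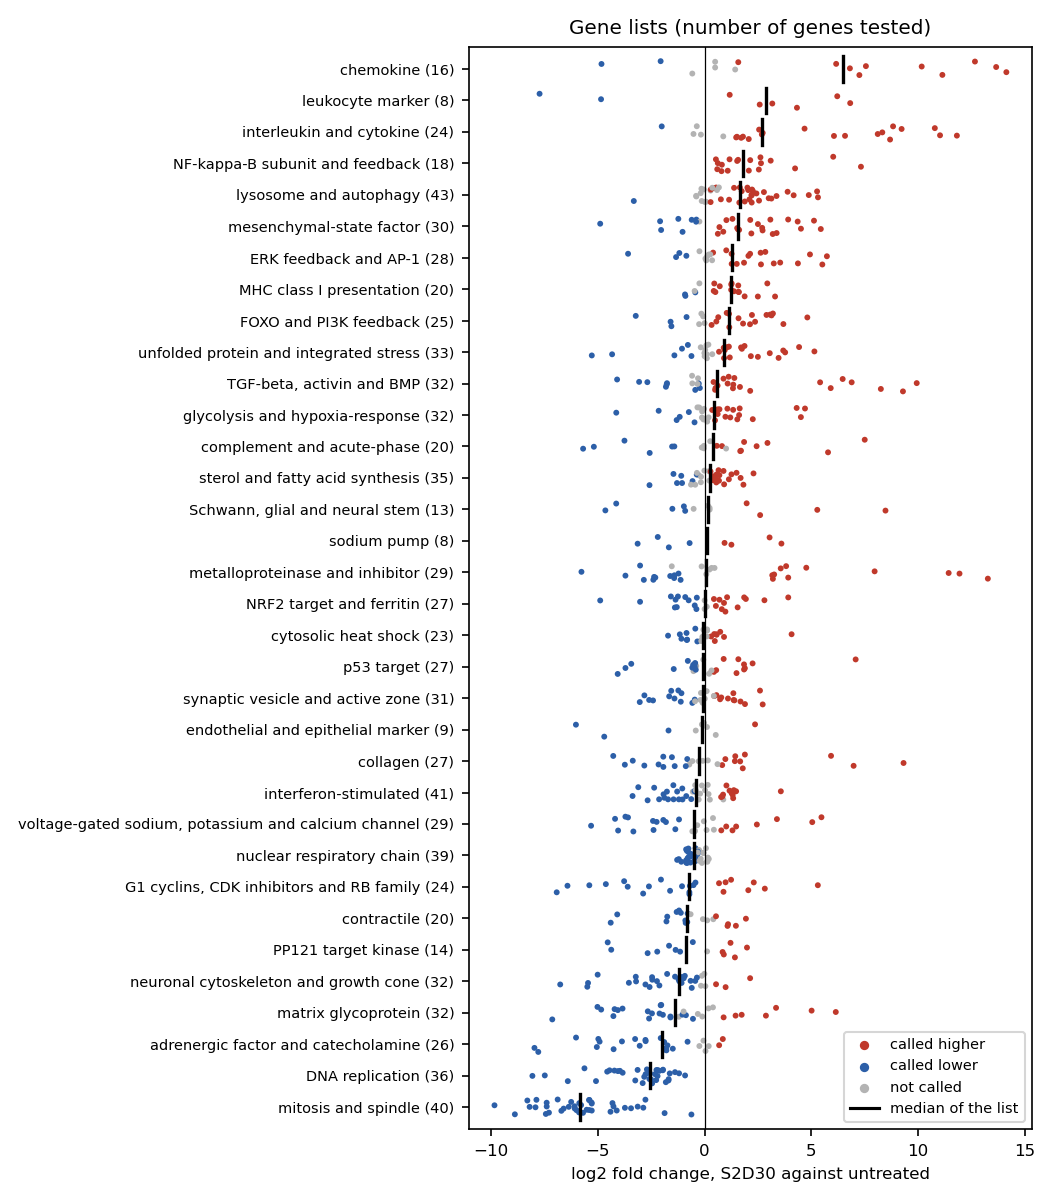
Log2 fold changes of S2D30 against untreated SK-N-AS for the tested genes of 34 lists, 1 point per gene, red where called higher, blue where called lower and grey where not called, with a black bar at the median of each list. Medians run from -5.83 (mitosis and spindle) to 6.49 (chemokines, 16 of 36 genes tested).

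To place the levels at day 30 beside those at day 4 of stage 2, S2D30 was compared with S2D4 in the same fit. The libraries shared drugs, doses and medium, and differed in time. Of the genes tested, 3863 were higher in S2D30 than in S2D4 (24.4%) and 4248 lower (26.9%), 51.3% in either direction. Without S2D4 replicate 4, 16098 genes passed the filter and these counts were 4268 and 4376. This comparison and that with untreated cells share the S2D30 libraries.

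Mitotic genes were lower in S2D30 than in S2D4 for 37 of 40, 36 without replicate 4, and none was higher. Over all genes tested 26.9% were lower. CDK1 differed by -5.45 (SE 0.42, adjusted p = 2.24e-08) and -5.17 (SE 0.41, adjusted p = 2.32e-08) without replicate 4. Adrenergic genes were lower for 20 of 26, 17 without replicate 4. CHGA stood at 500, 593 and 605 CPM in S2D4 replicates 1 to 3 and at 4048 CPM in replicate 4, and its difference was -6.02 (SE 0.70, adjusted p = 2.42e-06) and -4.68 (SE 0.36, adjusted p = 1.55e-08) without replicate 4. COL3A1 differed by -3.60 (SE 0.13, adjusted p = 1.07e-11) and -3.71 (SE 0.10, adjusted p = 3.81e-13) without replicate 4, after 508 to 749.9 CPM in S2D4.

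Many chemokine, NF-kappa-B and lysosome genes were higher at day 30 than at day 4. Of 16 chemokine genes, 11 were higher in S2D30 than in S2D4, and 10 of 19 without replicate 4. A gene that passed the filter on low counts only through its S2D30 counts had to differ here too. Over all genes tested 24.4% were higher. CCL20 differed by 5.42 (SE 0.49, adjusted p = 1.52e-07) and 5.10 (SE 0.34, adjusted p = 3.27e-09) without replicate 4. In the NF-kappa-B list 14 of 18 were higher, and 15 of 19 without replicate 4, and BIRC3 differed by 4.27 (SE 0.39, adjusted p = 1.66e-07) and 4.05 (SE 0.39, adjusted p = 2.04e-07) without replicate 4. Lysosome and autophagy genes were higher for 29 of 43, and for 33 without replicate 4, with NPC1 at 2.19 (SE 0.10, adjusted p = 1.25e-10) and 2.25 (SE 0.10, adjusted p = 4.34e-11) without replicate 4. MMP1, at 1774, 1681, 1605 and 60.7 CPM in the 4 S2D4 libraries, differed by 3.0 (SE 0.61, adjusted p = 6.09e-04) and 2.60 (SE 0.20, adjusted p = 1.86e-08) without replicate 4.

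Of 35 sterol and fatty acid synthesis genes, 26 were higher in S2D30 than in S2D4 and 5 lower, and 25 and 4 without replicate 4; against untreated cells 17 were higher and 8 lower. INSIG1 was below untreated in S2D4, at 16 to 29.1 CPM, and differed by 2.40 (SE 0.19, adjusted p = 2.74e-08) and 2.25 (SE 0.17, adjusted p = 1.00e-08) without replicate 4. Heat shock genes were higher for 13 of 23, 12 without replicate 4. The shares over all genes tested against S2D4 were 24.4% higher and 26.9% lower. Other genes showed no called difference or were lower. CDKN2B stood at 126 to 148 CPM in S2D4 and differed by 0.02 (SE 0.21, adjusted p = 0.934) and -0.02 (SE 0.21, adjusted p = 0.953) without replicate 4. EGR1 was not called either, at -0.32 (SE 0.28, adjusted p = 0.361) and -0.50 (SE 0.27, adjusted p = 0.127) without replicate 4. DUSP6 was lower than in S2D4, with a difference of -1.38 (SE 0.14, adjusted p = 8.19e-07) and -1.42 (SE 0.15, adjusted p = 5.93e-07) without replicate 4, and VGF, at 60564 to 68433 CPM in S2D4, was lower too, with a difference of -0.74 (SE 0.19, adjusted p = 0.00373) and -0.77 (SE 0.20, adjusted p = 0.00316) without replicate 4. The GDF15 result rests on 1 library: it stood at 212, 212, 228 and 2114 CPM in S2D4 and differed by 0.28 (SE 0.59, adjusted p = 0.722) and 1.94 (SE 0.24, adjusted p = 3.34e-06) without replicate 4.

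**Figure D4:**
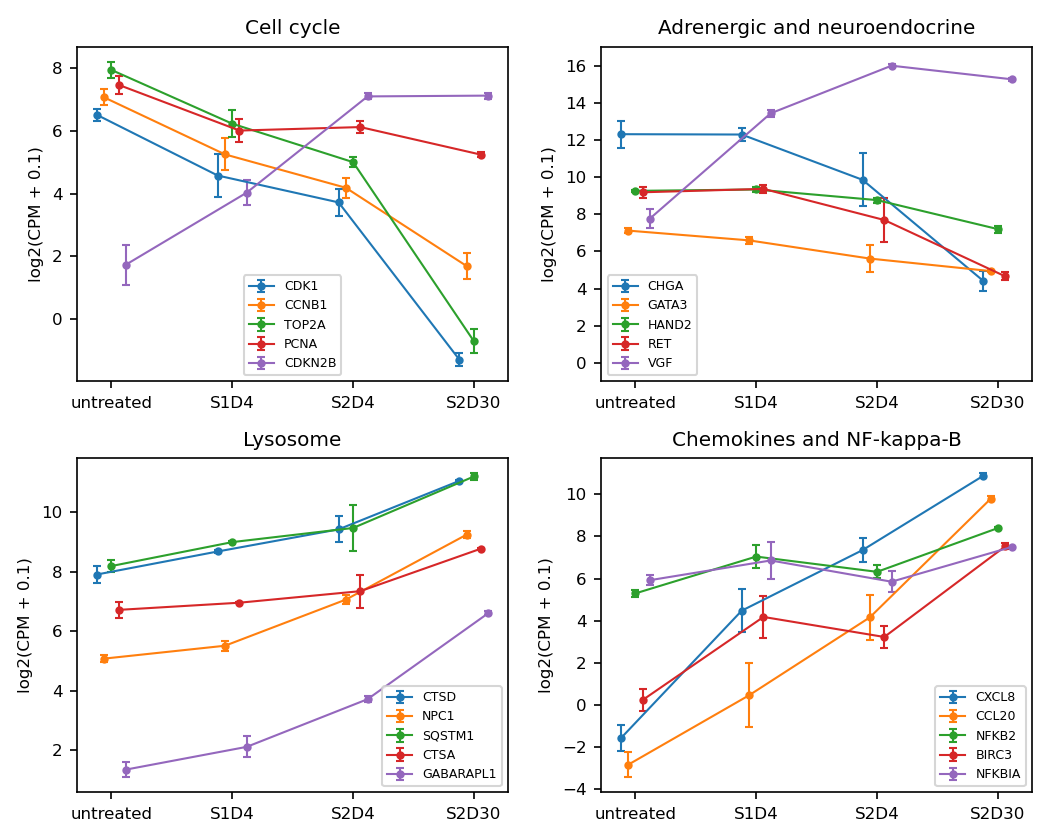
Mean and SD (bars, n = 4) of log2(CPM + 0.1) in untreated, S1D4, S2D4 and S2D30 libraries for 20 genes in 4 panels, with lines joining the groups of 1 gene. CDK1 and CHGA are lowest in S2D30, the 5 lysosome genes and CXCL8 and CCL20 are highest there, and VGF is highest in S2D4; the wide bars of CHGA and RET in S2D4 come with replicate 4.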

How the data were processed

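RNA-seq of SK-N-AS was analysed from the deposited table of counts per gene (35237 genes, 22 columns, 0 of them without a sample). Total RNA was sequenced as paired reads of 150 bases, per the labels' protocols, and the authors deposited whole-number counts. The aligner, counter, annotation, strand setting and genome build are not given in the sources used here. Counts were tested in edgeR 4.0.16 (R 4.3.3, limma 3.58.1): a gene filter (filterByExpr, minimum count 10, minimum total 15), TMM factors, 1 mean for each of 4 groups over all 16 SK-N-AS libraries, the quasi-likelihood F-test and Benjamini-Hochberg adjustment over 15810 genes. The SE of a log2 fold change is its size divided by the square root of F. CPM were computed here from the deposited counts with the TMM factors. Where 1 group had at most 3 counts in each library, the text gives a bound against 3 counts per library (all libraries at 0) or the ratio of pooled counts with an exact 95% interval. Intervals and floors cover counting error only. 

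Named were the 10 largest rises and falls with an adjusted p under 0.05, at least 10 CPM in the higher group, no overlap and an approved-looking symbol, per list the 2 largest changes in its leading direction and 1 in the other, and fixed markers. Another 30 genes were picked with their values in view. Besides those marked so in the text, they were CDK1, CCNB1, PCNA, CCND1, CDK6, CXCL1, CXCL12, NFKB2, NFKBIA, B2M, DUSP6, PSAT1, FTH1 and MSMO1. The members and the 34 lists (1009 genes) were chosen with earlier results of these data known, and no list was tested. Some genes that the rule names are not reported here. The 10 list members under older symbols in the table were matched through RefSeq synonyms. Overlap with other genes was taken from GENCODE v29 and promoters from RefSeq (GRCh38.p14, of which 11242 matched genes tested). The fit was checked on simulated counts. Alternatives were other scalings, DESeq2 1.42.0, filters on low counts, a fold threshold, a replicate block, fits of the compared groups alone, leaving out each library and splitting the untreated libraries. GIMEN libraries were not analysed here.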

Additional observations from a re-analysis of the deposited data

Results flagged for a closer look

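A library far from the other 3 of its group, by a gap beyond Dixon's 95% critical share of the range, was found in 22 of 319 gene and group pairs examined. Chance alone marks about 1 in 20. In S2D4 9 of 19 genes examined were marked, and the library was replicate 4 for all 9. Replicate 4 was the high library for CDK1 (20.6 CPM, against 10.9 to 11.5 CPM), CHGA (4048 CPM, against 500 to 605 CPM), GDF15 (2114 CPM, against 212 to 228 CPM) and HSPA1A (132 CPM, against 88.0 to 92.3 CPM). It was the low library for CCL20 (5.67 CPM, against 25.3 to 26.2 CPM), CCL3 (0 CPM, against 1.25 to 1.35 CPM), EGR1 (869 CPM, against 1567 to 1641 CPM), IL1B (26.0 CPM, against 259.9 to 289 CPM) and MMP1 (60.7 CPM, against 1605 to 1774 CPM). The log2 fold change of S2D30 against S2D4 was 6.75 with and 6.23 without it for CCL3, 1.91 with and 2.07 without it for HSPA1A and 1.96 with and 1.59 without it for IL1B, and the report gives the other 6 genes both ways.

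In untreated cells 10 of 150 genes examined were marked. Replicate 4 stood high for CDK6 (651 CPM, against 322 to 348 CPM), FN1 (91.0 CPM, against 52.6 to 57.8 CPM), SYNPO2 (562 CPM, against 354 to 371 CPM) and TOP2A (318 CPM, against 223 to 228 CPM). The others were spread over replicates 1 to 3: BMP2 in untreated replicate 2 (0.280 CPM, against 0 CPM), GATA3 in untreated replicate 3 (156 CPM, against 132 to 136 CPM), IL24 in untreated replicate 1 (0.0527 CPM, against 0 CPM), NDRG1 in untreated replicate 2 (6.72 CPM, against 7.22 to 7.31 CPM), TH in untreated replicate 2 (0.607 CPM, against 0.153 to 0.221 CPM) and TNFAIP3 in untreated replicate 2 (0.980 CPM, against 0.411 to 0.458 CPM). In S2D30 3 of 150 were marked: SHD in S2D30 replicate 1 (0.317 CPM, against 0.0898 to 0.106 CPM), SPSB4 in S2D30 replicate 3 (0.0467 CPM, against 0 CPM) and SYN2 in S2D30 replicate 2 (2.59 CPM, against 3.49 to 3.64 CPM). Several of these values are a few counts in 1 library. Apart from TH, which was not called, these genes kept the direction and the call of S2D30 against untreated when the marked library was left out.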

How the results depend on the processing

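The counts of genes called in S2D30 against untreated stayed between 5040 and 6027 higher and between 5193 and 5834 lower under the other scalings, tests, filters, fits and splits, and those against S2D4 between 3766 and 4320 higher and between 3823 and 4237 lower. Leaving out each library gave 5127 to 5689 and 5431 to 5763 against untreated, and 3482 to 4268 and 3829 to 4376 against S2D4. Requiring a 2-fold difference gave 2807 and 3038 against untreated and 1603 and 1506 against S2D4. DESeq2 called 5577 higher and 5583 lower against untreated. Depth limits genes with few counts, such as TNF and TH.

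No pairing by replicate number was visible: deviations of same-numbered untreated and S2D30 libraries correlated at -0.06, -0.02, 0.10 and 0.11. Untreated replicates 1 to 4 matched S2D30 replicates 3, 4, 3 and 1 best. These correlations cannot show whether same-numbered samples came from linked cultures, since other splits between libraries also enter them. With the replicate block 5429 genes were higher and 5776 lower than untreated, and 3925 and 4237 differed from S2D4.

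Of 150 named genes, 1 lost the call against untreated under some alternative: CCL2 (-1.25, adjusted p = 0.15, untreated replicates 3 and 4 alone). Leaving out 1 library moved the fold of other named genes by over 1.5 times: without untreated replicate 1 the log2 differences became 14.74 for CCL20, 13.89 for IL24, 11.67 for IL1B, 9.11 for EGR2, 7.56 for CXCL1 and 6.77 for THBS2, without untreated replicate 2 they became 13.44 for BMP2, 10.66 for COL22A1 and 1.47 for TNF, and without untreated replicate 4 13.76 for RBBP8NL. Without S2D30 replicate 1 they became -11.95 for MKI67, -11.42 for SHD, -9.91 for PBK and -9.31 for HR, without replicate 2 -10.49 for FBP1 and -9.53 for NEIL3, and without replicate 3 -11.65 for SPSB4. Against S2D4, 23 of 150 changed side of the threshold under some alternative. The synaptic list had no stable direction: its median of -0.09 ran from -0.13 (without untreated replicate 3) to 0.017 (without untreated replicate 4). The cytokine median of 2.71 was 5.39 in a model of the compared groups alone and 3.72 with a mean of at least 10 counts, and the complement median of 0.42 was 0.01 against untreated replicates 1 and 2 alone and 1.08 against replicates 3 and 4 alone. The chemokine median of 6.49 was 5.68 and 8.41 in the same splits. Among list counts, MHC class I genes called lower were 5 rather than 3 with the replicate block, without untreated replicate 4 and against replicates 1 and 2 alone, and heat shock genes called higher were 5 rather than 8 without untreated replicate 2 and against replicates 3 and 4 alone. The sodium pump median of 0.12 was -0.69 with a mean of at least 10 counts, and the glial median of 0.16 was -0.16. The cause of these changes was not tested.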
